A study of Mus musculus with 4 samples.

Results

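Tetraspanins are small proteins that cross the membrane repeatedly and gather integrins, immunoglobulin superfamily receptors and proteases into membrane microdomains. The transcripts of 10 of them were examined in resting CD4 T cells that lack the interferon-inducible transmembrane (IFITM) family, namely Cd9, Cd37, Cd53, Cd63, Cd81, Cd82, Cd151, Tspan13, Tspan31 and Tspan32. The genes were taken by name as members of the family, and 20 further measured tetraspanins were set beside them. IFITM1, first described on leukocytes as Leu-13, is known from human B cells as a partner of the tetraspanin CD81 in a complex with the complement receptor CD21. A complex with IFITM1 was not shown by these data for any member, since the arrays measured RNA only. All 10 genes had a probe set naming that gene alone, 1 each, among 19937 genes with such a probe set.

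The IfitmF–/– mice lack Ifitm1, Ifitm2, Ifitm3, Ifitm5 and Ifitm6, the family as the study lists it, in all cells. They were compared with WT mice, with 2 arrays (Affymetrix Mouse Gene 1.0 ST) per genotype. Per the labels, the animals of both genotypes were adults 6 to 8 weeks old and received no treatment, and per the study the line was kept on C57BL/6. Splenocytes of both genotypes were treated with ammonium chloride, which lyses red cells, and CD4 T cells were then enriched by antibody removal of other cells. Cells from a pair of mice were pooled for each array, and the labels call the replicates biologically independent. The deposited values are RMA intensities, that is, background-corrected, quantile-normalised and summarised probe set signals. They are given here as log2, and each change is IfitmF–/– minus WT on that scale with limma's Benjamini-Hochberg adjusted p over all 34760 probe sets, called at an adjusted p under 0.05.

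Arrays of a genotype correlated at 0.9909 for IfitmF–/– and 0.9929 for WT, and arrays of different genotypes at 0.976 to 0.9792. The 6 probe sets of Ifitm1, Ifitm2 and Ifitm3 read 4.36 to 6.05 on IfitmF–/– arrays and 6.54 to 9.26 on WT arrays (changes of -4.60 to -1.02, adjusted p = 0.00778 to 0.0155). Ifitm5 and Ifitm6 changed by -0.15 and -0.89 and were not called (limma, adjusted p = 0.484 and 0.0706). Xist, which is transcribed from an inactive X chromosome, read 4.86 and 4.43 in IfitmF–/– and 11.32 and 11.25 in WT. Eif2s3y on the Y chromosome read 9.48 and 9.61 in IfitmF–/– and 3.90 and 4.05 in WT. The sex of the mice and the genotype therefore cannot be told apart in any change given here. T cell markers were bright on every array (a list mean of 11.44 and 11.41 in IfitmF–/–, 11.26 and 11.30 in WT, 7 of 8 genes measured), while markers of B cells, platelets, red cell precursors and myeloid cells were also measured and varied between arrays of 1 genotype. The plasma cell list was lower in IfitmF–/– for all 5 genes without overlap (list means of 8.13 and 8.17 in IfitmF–/–, 9.23 and 8.87 in WT), and Xbp1 among them was called (change -1.58, adjusted p = 0.0115). Neutrophil markers averaged 5.77 and 6.01 in IfitmF–/– and 5.31 and 5.27 in WT, with Retnlg alone called higher, and NK cell markers 7.90 and 7.68 in IfitmF–/– and 7.77 and 7.40 in WT, with Nkg7 alone called lower. No marker of plasmacytoid dendritic cells or CD8 T cells was called. In such bulk samples fewer cells of a type and less RNA per cell cannot be told apart.

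Of the 10 tetraspanins, 2 were called, Tspan32 and Cd151, both higher in IfitmF–/– cells, by 2.14-fold and 2.01-fold. No member was called lower. Over all probe sets 8.43% were called, 4.48% as higher in IfitmF–/– and 3.95% as lower, so the 20% of the members stands for only 2 genes. The median change of the 10 members was -0.054, beside -0.016 over all probe sets. The arrays of the genotypes did not overlap for 5 of the 10 members (Tspan32, Cd151, Cd63, Cd53 and Tspan13), beside 57.5% of all probe sets. At an unadjusted p under 0.05 stood 3 members, beside 26.4% of all probe sets. By the methods' t-test, without adjustment, Tspan32 and Cd151 again passed, beside 19.6% of all probe sets.

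**Figure D1:**
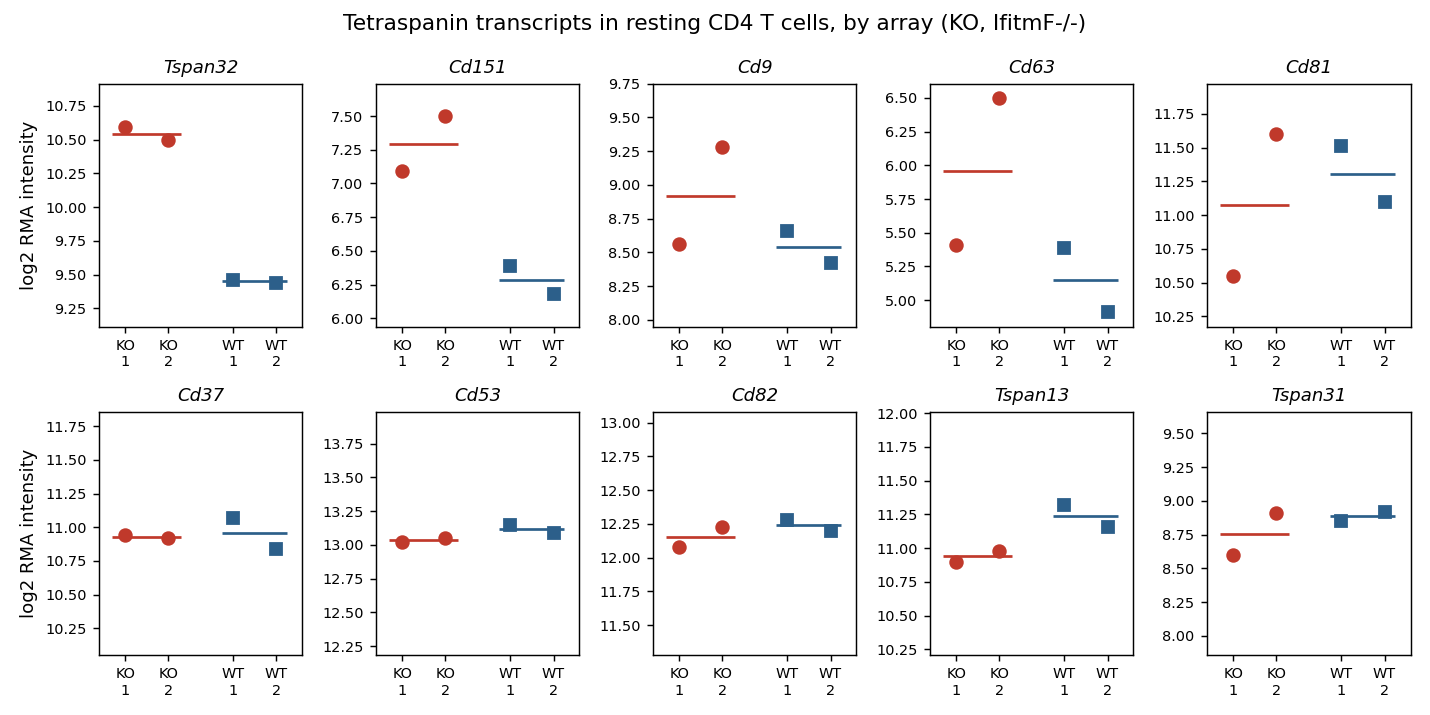
Log2 RMA intensity of the 10 tetraspanins on each array, with IfitmF–/– (KO, circles) left of WT (squares), and a line at each genotype's mean; the axes span an equal log2 range at different levels. Tspan32 and Cd151 lie higher on both IfitmF–/– arrays, whereas Cd9, Cd63 and Cd81 differ most between the IfitmF–/– arrays themselves.

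Tspan32, also called Tssc6 or Phemx, is a tetraspanin of blood cells, and mice that lack it are known for stronger T cell proliferation and for a platelet integrin defect. Its probe set (10559248) read 10.59 and 10.50 on IfitmF–/– arrays, against 9.46 and 9.44 on WT arrays. On the linear scale these were intensities of 1540 and 1450 in IfitmF–/– cells and 704 and 693 in WT cells. Both IfitmF–/– values were thus well above both WT values, and the arrays of a genotype lay close together. The means were 10.55 ± 0.07 in IfitmF–/– and 9.45 ± 0.02 in WT (SD, n = 2 each), a change of 1.10 (SE 0.08, interval at 95% of 0.88 to 1.32), or 2.14-fold (limma, adjusted p = 0.0141). Among the 10 members only Tspan32 also met the study's size filter, a fold over 2 with a range of at least 250 intensity units, which 1.16% of all probe sets met together with the call. With any 1 of the 4 arrays left out the change stayed at 1.05 to 1.15 but was no longer called (adjusted p = 0.0681 to 0.114), and no probe set of the array was called in those fits. Beside it, the list of 7 T cell markers averaged 11.44 and 11.41 in IfitmF–/– and 11.26 and 11.30 in WT, with Cd3d and Cd3g called higher and Cd28 called lower, and the list of 6 erythroid markers averaged 9.57 and 9.39 in IfitmF–/– and 7.41 and 8.88 in WT. The list of 5 platelet markers averaged 8.62 and 9.78 in IfitmF–/– and 8.50 and 8.10 in WT. The part of these cell types in the result was not tested.

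Cd151 binds the laminin receptors of the integrin family and is known from platelets, endothelium and epithelia. Its probe set (10558948) read 7.09 and 7.50 in IfitmF–/– cells, against 6.39 and 6.18 in WT cells. The genotypes did not overlap, but the IfitmF–/– arrays were 0.41 apart. The means were 7.29 ± 0.29 in IfitmF–/– and 6.28 ± 0.14 in WT (SD, n = 2 each), a change of 1.01 (SE 0.17, interval 0.55 to 1.47), or 2.01-fold (limma, adjusted p = 0.0434). The signal was modest, brighter than 62.6% and 67.6% of all probe sets on IfitmF–/– arrays and 52.1% and 48.1% on WT arrays, and its range of 108 intensity units missed the study's filter. Leaving out any 1 array gave changes of 0.81 to 1.21, none of them called (adjusted p = 0.0699 to 0.204). The platelet list (Itga2b, Pf4, Ppbp, Gp9 and Gp5) was also highest on the second IfitmF–/– array, where Cd151 was highest, with means of 8.62 and 9.78 in IfitmF–/– and 8.50 and 8.10 in WT. On the first IfitmF–/– array the platelet list averaged 8.62 and Cd151 read 7.09, each above both of its WT values.

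Cd9 and Cd63 are tetraspanins of platelets and of endosomal vesicles, Cd9 at the surface and Cd63 in late endosomes and granules. Cd9 read 8.56 and 9.28 in IfitmF–/– cells and 8.66 and 8.42 in WT cells, so the genotypes overlapped. Its change of 0.39 had an interval of -0.33 to 1.10 (limma, adjusted p = 0.433). Cd63 read 5.41 and 6.50 in IfitmF–/– and 5.39 and 4.91 in WT, which places the first array of each genotype almost level. Its change of 0.80 had an interval of -0.30 to 1.91 (limma, adjusted p = 0.305). The Cd63 signal was dim, with 34.0% and 54.4% of probe sets below it on IfitmF–/– arrays and 33.3% and 23.9% on WT arrays, and 3 of its 4 values lay within the range of the deleted Ifitm genes on IfitmF–/– arrays.

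For both genes the second IfitmF–/– array stood highest, and the same array was highest for the platelet markers. The means of the myeloid and neutrophil lists were also highest there, at 8.50 and 6.01. On the first arrays Cd9 was higher in WT, whereas the platelet mean was higher in IfitmF–/– (8.62, against 8.50 in WT). Ppbp, the platelet basic protein, read 11.80 and 12.90 in IfitmF–/– and 11.38 and 10.67 in WT. Gp9, a subunit of the platelet receptor for von Willebrand factor, read 8.93 and 10.40 in IfitmF–/– and 8.55 and 8.00 in WT. None of the 5 platelet markers was called, and all 5 had positive changes of 0.35 to 1.39. The part of platelet RNA in Cd9, Cd63, Cd151 and Tspan32 was not tested, nor that of myeloid cells and neutrophils in Cd9 and Cd63. Without the second IfitmF–/– array the change of Cd9 was 0.026 and that of Cd63 was 0.25 (neither called).

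Cd81, the tetraspanin known as the IFITM1 partner, is known as a costimulator of T cells. It read 10.55 and 11.60 in IfitmF–/– cells and 11.51 and 11.10 in WT cells. The IfitmF–/– arrays held both the lowest and the highest value, and the WT arrays lay between them. The means were 11.08 ± 0.74 in IfitmF–/– and 11.31 ± 0.29 in WT (SD, n = 2 each). The change was -0.23 with an interval of -1.27 to 0.81 (limma, adjusted p = 0.752), and the interval thus took in a fall by 1 log2 unit. Leaving out the first IfitmF–/– array turned the direction, to 0.29. The arrays took the same places for the mean of the myeloid list of 10 genes, 7.72 and 8.50 in IfitmF–/– and 8.40 and 7.78 in WT. Of its single genes, only Adgre1 and Fcgr3 took this order. Csf1r, the receptor of macrophage colony-stimulating factor, read 9.52 and 10.62 in IfitmF–/– and 10.71 and 9.70 in WT. It was highest on the first WT array, as were Itgam, Itgax, Cd68, Cybb and Csf3r. Lyz2, the lysozyme of these cells, was higher on both IfitmF–/– arrays. It read 9.81 and 10.62 in IfitmF–/– and 9.16 and 8.59 in WT (change 1.34, interval 0.43 to 2.26, limma adjusted p = 0.0942). No myeloid marker was called, and the part of these cells in the Cd81 signal was not tested.

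**Figure D2:**
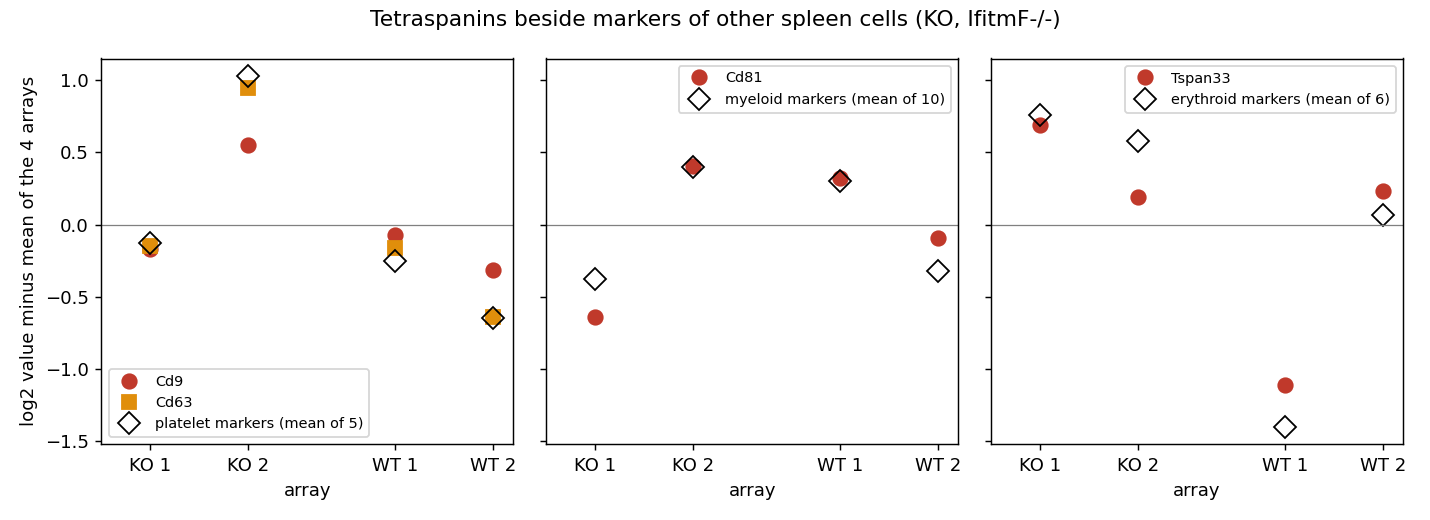
Log2 value minus the mean of the 4 arrays, with IfitmF–/– (KO) arrays left of WT arrays, for Cd9 and Cd63 beside platelet markers, Cd81 beside myeloid markers and Tspan33 beside erythroid markers. Cd9, Cd63 and the platelet list are highest on the second IfitmF–/– array, and Tspan33 and the erythroid list are lowest on the first WT array.

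Cd37, Cd53 and Cd82 are tetraspanins of white blood cells, and T cells of mice that lack Cd37 are known to proliferate more. Cd37 read 10.94 and 10.92 in IfitmF–/– cells and 11.07 and 10.84 in WT cells, a change of -0.022 (interval -0.31 to 0.27, limma adjusted p = 0.921). The IfitmF–/– values lay between the WT values. Cd53, a pan-leukocyte marker, read 13.02 and 13.05 in IfitmF–/– and 13.15 and 13.09 in WT, a change of -0.085 (interval -0.30 to 0.13, adjusted p = 0.551). Cd82, which in human T cells associates with CD4 and CD8, read 12.08 and 12.23 in IfitmF–/– and 12.28 and 12.20 in WT, a change of -0.085 (interval -0.34 to 0.17, adjusted p = 0.629). The intervals of these 3 genes reached no further than -0.34 on one side and 0.27 on the other.

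Tspan13 and Tspan31 are less studied members of the family. Tspan13 read 10.90 and 10.98 in IfitmF–/– cells and 11.32 and 11.16 in WT cells, lower on both IfitmF–/– arrays than on either WT array. Its change of -0.30 (SE 0.10, interval -0.56 to -0.04) was the only negative one with an unadjusted p under 0.05 among the members, and it failed adjustment (limma, adjusted p = 0.153). The mean of the plasma cell markers took the same order over the 4 arrays, and their part in this value was not tested. Tspan31 read 8.60 and 8.91 in IfitmF–/– and 8.85 and 8.92 in WT, a change of -0.13 (interval -0.48 to 0.22, limma adjusted p = 0.593). The first IfitmF–/– array was the lowest and the other 3 were nearly level.

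The rest of the family was examined in the same fit. Of 21 further tetraspanins 20 were measured, and Tspan7 was not analysed here. None of the 20 was called at the adjusted p of limma, beside 8.43% of all probe sets. At an unadjusted p under 0.05 stood 4, all of them higher in IfitmF–/– cells, beside 26.4% of all probe sets. The arrays did not overlap for 8, beside 57.5%, so these shares lay below those of the whole array. The median change was -0.021. Tspan8, a tetraspanin known from epithelia, read 6.48 and 6.44 in IfitmF–/– and 4.79 and 5.57 in WT (change 1.28, interval 0.54 to 2.01, adjusted p = 0.0677). Tspan6, encoded on the X chromosome, read 6.18 and 6.24 in IfitmF–/– and 5.80 and 5.56 in WT (change 0.53, adjusted p = 0.0678). Upk1b, a uroplakin of the bladder lining, read 5.89 and 6.12 in IfitmF–/– and 5.40 and 5.53 in WT (change 0.54, adjusted p = 0.0693). These 3 were separated between genotypes at low signal, with 21.9% to 53.8% of probe sets below them. When only probe sets naming 1 gene were tested, these 3 of the 20 were called, beside 3037 of all 21640 tested.

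**Figure D3:**
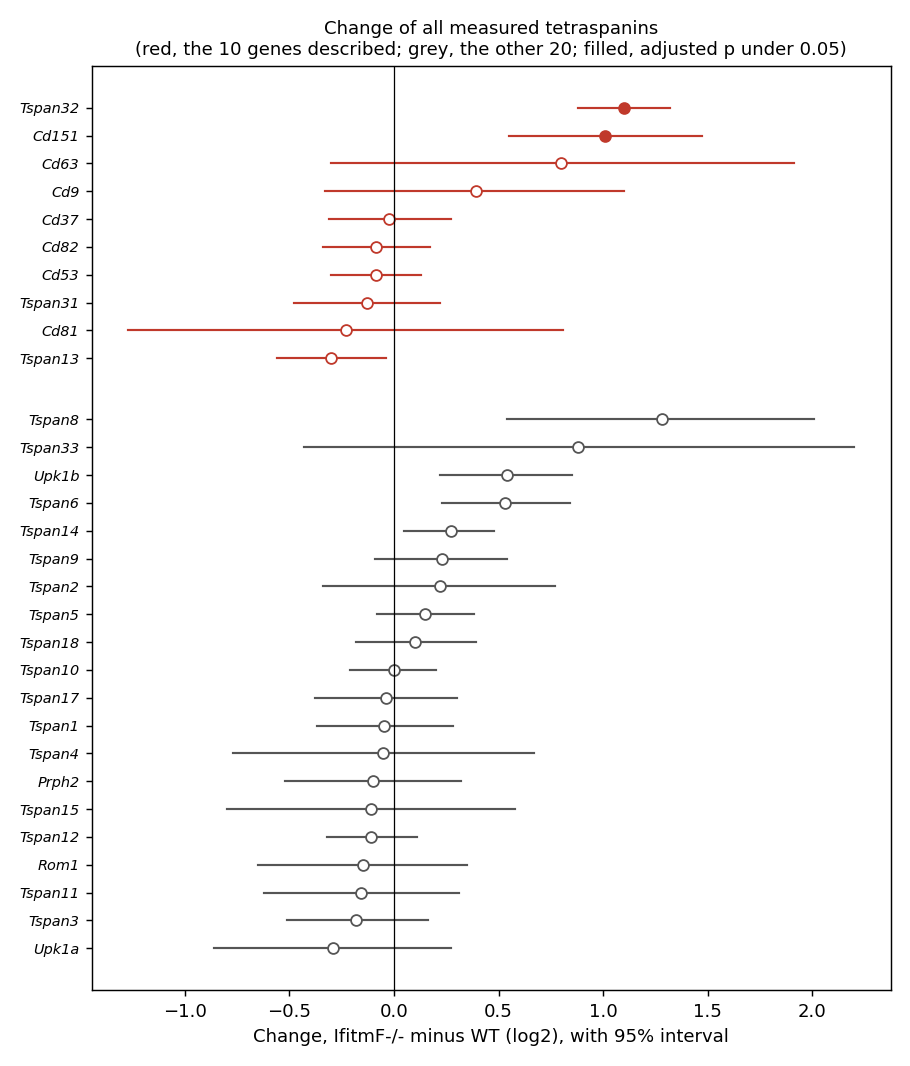
Change (IfitmF–/– minus WT, log2) of the 30 measured tetraspanins with 95% intervals, the 10 members above and the other 20 below; filled points were called at an adjusted p under 0.05. Tspan32 and Cd151 are the filled points, and Tspan33, Cd63 and Cd81 have the widest intervals.

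A subgroup of the family, the TspanC8 tetraspanins, escorts the metalloprotease ADAM10 out of the endoplasmic reticulum and sets which substrates it sheds. Of its 6 members Tspan5, Tspan10, Tspan14, Tspan15, Tspan17 and Tspan33, none was called, beside 8.43% of all probe sets. Tspan14 read 10.68 and 10.67 in IfitmF–/– cells and 10.44 and 10.37 in WT cells, without overlap (change 0.27, interval 0.05 to 0.48, adjusted p = 0.13). Tspan33 read 8.30 and 7.80 in IfitmF–/– and 6.49 and 7.84 in WT, where the first WT array alone stood low (change 0.88, interval -0.43 to 2.20, adjusted p = 0.337). Tspan33 is needed in red cell formation in mice, and the same WT array was lowest for the erythroid list. Slc4a1, the red cell anion exchanger, read 12.01 and 11.78 in IfitmF–/– and 9.24 and 11.19 in WT. Alas2, the erythroid enzyme that starts haem synthesis, went the other way, with 10.36 and 10.47 in IfitmF–/– and 10.85 and 9.98 in WT. The part of red cell precursors in the Tspan33 values was not tested.

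Proteins known to sit in tetraspanin complexes or to serve them were examined next. Of 27 listed genes 25 were measured, and the other 2 were not analysed here. Among the 25, 1 rose and 2 fell, 12% beside the 8.43% of all probe sets, with a median change of 0.005. Adam10, the protease escorted by TspanC8 tetraspanins, read 9.85 and 9.85 in IfitmF–/– cells, against 9.43 and 9.44 in WT cells. It was higher on both IfitmF–/– arrays by a small and even margin (change 0.42, SE 0.08, interval 0.21 to 0.62, 1.34-fold, limma adjusted p = 0.0495). Ezr encodes ezrin, which ties membrane proteins to the actin cortex. It read 10.63 and 10.46 in IfitmF–/– cells, against 11.22 and 11.37 in WT cells (change -0.75, SE 0.11, interval -1.04 to -0.47, adjusted p = 0.0324), a WT level 1.69-fold that of IfitmF–/–. Pi4k2a, a phosphatidylinositol 4-kinase of the type that associates with tetraspanins, read 8.06 and 8.16 in IfitmF–/–, against 8.59 and 8.68 in WT (change -0.52, SE 0.09, interval -0.76 to -0.28, adjusted p = 0.0435). None of the 3 met the study's size filter, and none was called with any 1 of the 4 arrays left out, when the count at an unadjusted p under 0.05 was 4 to 9 of the 25.

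The integrins that tetraspanins bind were not called in this fit. Itgal, the alpha chain of LFA-1, read 10.27 and 10.41 in IfitmF–/– and 10.74 and 10.72 in WT, without overlap (change -0.39, adjusted p = 0.0771). It was called with trend and robust eBayes, without dim probe sets and with probe sets of 1 gene, where 4 partners were called each time. With trend and robust eBayes these were 4 of 25 partners, beside 3669 of 34760 probe sets. Without dim probe sets they were 4 of 22, beside 4196 of 18200, and with probe sets of 1 gene 4 of 25, beside 3037 of 21640. Itga4 of VLA-4 changed by 0.29 (adjusted p = 0.164), and the laminin receptor chains Itga6 by 0.20 (adjusted p = 0.216) and Itga3 by -0.34 (adjusted p = 0.129). The beta chains Itgb1 and Itgb2 overlapped between genotypes, with changes of 0.026 and 0.10. The immunoglobulin superfamily partners of CD9 and CD81, Igsf8 and Ptgfrn, changed by -0.22 and -0.098 (adjusted p = 0.193 and 0.69). Cd4 itself read 11.79 and 11.71 in IfitmF–/– and 11.44 and 11.52 in WT (change 0.27, adjusted p = 0.141). Cr2, which encodes the CD21 of the IFITM1 and CD81 complex, read 4.87 and 5.16 in IfitmF–/– and 6.92 and 5.16 in WT. Its highest value was on the first WT array, which was also the highest for the B cell list (7.97 and 8.32 in IfitmF–/–, 9.66 and 8.15 in WT, 13 of 14 genes measured and none called). The part of B cells in the Cr2 value was not tested.

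The called tetraspanins share a chromosome with the deleted family. Of the 10 members 4 (Cd37, Cd81, Cd151 and Tspan32) are encoded on mouse chromosome 7, which also carries the Ifitm cluster, and 2 of the 4 were called. None of the 6 members on other chromosomes was called, beside 8.43% of all probe sets. The 2 further tetraspanins measured on chromosome 7, Tspan4 and Upk1a, were not called either. In the RefSeq gene order of GRCm38.p6, Cd151 follows the end of the cluster with 27 protein-coding genes between them, Tspan4 with 29, Tspan32 with 66 and Cd81 with 67. Cd37 lies on the other side, with 1018 genes between. Genes of the stretch changed in both directions. Of 68 protein-coding genes up to and including Cd81, 56 were measured and 8 were called, 5 higher and 3 lower (14.3%). Among the other measured protein-coding genes of chromosome 7, 115 of 1582 were called (7.27%). Changes in the stretch reached from -1.04 for Dusp8, a phosphatase of MAP kinases, up to 1.10 for Tspan32. The stretch was chosen with the values of its tetraspanins known, and Tspan32 and Cd151 are among its 8 called genes. Its share of 14.3% is thus not independent of that choice, and the stretch was not tested.

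**Figure D4:**
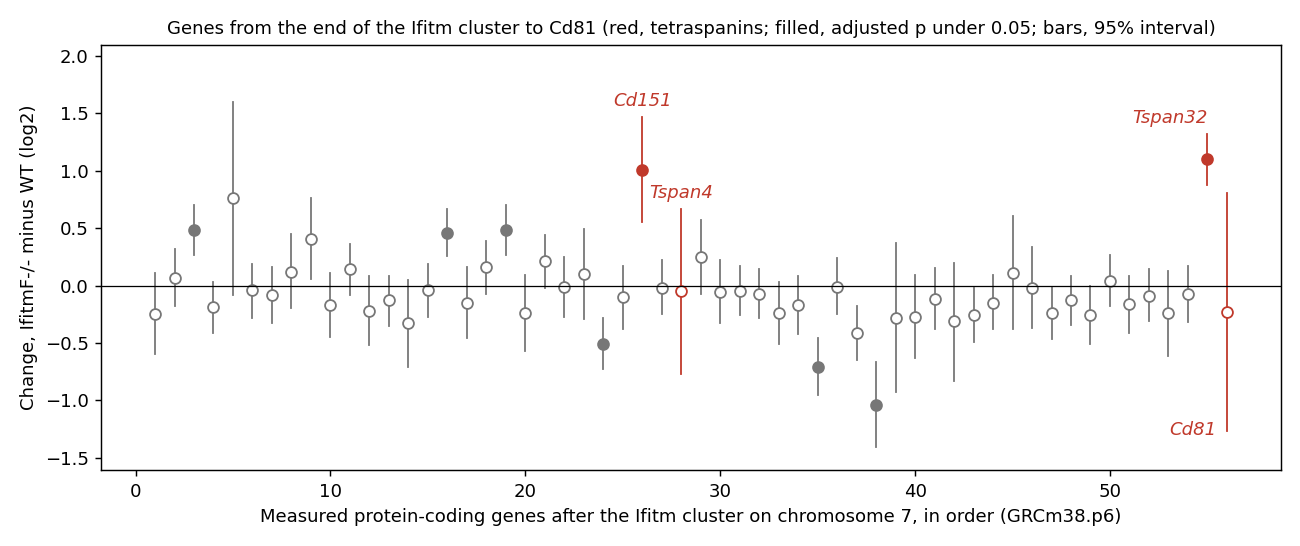
Change (IfitmF–/– minus WT, log2) with 95% intervals of the 56 measured protein-coding genes after the Ifitm cluster on chromosome 7, in gene order up to Cd81; tetraspanins are red and called genes filled. Tspan32 and Cd151 are the highest of the called genes, Dusp8 is the lowest, and called genes lie among uncalled neighbours.

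Each called member has a tetraspanin beside it that was not called. Tspan32 and Cd81 are adjacent, and Cd151 and Tspan4 are separated by Polr2l alone. Tspan4 read 7.80 and 8.50 in IfitmF–/– cells and 8.35 and 8.06 in WT cells, which overlap (change -0.054, interval -0.77 to 0.67, adjusted p = 0.924). The difference between the changes within a pair was not tested. The promoters of these 4 genes are printed because each pair joins a called gene to a neighbour that was not called. They are the RefSeq windows of GRCm38.p6, all on the plus strand, 250 bases before to 50 bases after the first annotated start. Capitals mark matches on either strand to a GC box (GGGCGG, on the minus strand CCGCCC) or to a TATA box (TATAAA), the motifs found in these windows, and the search allowed no mismatch.
Tspan32, chr7:143004796-143005095: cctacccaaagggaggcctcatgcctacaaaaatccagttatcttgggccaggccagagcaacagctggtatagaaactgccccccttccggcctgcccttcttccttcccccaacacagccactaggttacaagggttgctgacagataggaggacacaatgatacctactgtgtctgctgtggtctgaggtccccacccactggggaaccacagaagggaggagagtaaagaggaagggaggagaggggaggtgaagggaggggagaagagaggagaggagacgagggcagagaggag
Cd81, chr7:143052500-143052799: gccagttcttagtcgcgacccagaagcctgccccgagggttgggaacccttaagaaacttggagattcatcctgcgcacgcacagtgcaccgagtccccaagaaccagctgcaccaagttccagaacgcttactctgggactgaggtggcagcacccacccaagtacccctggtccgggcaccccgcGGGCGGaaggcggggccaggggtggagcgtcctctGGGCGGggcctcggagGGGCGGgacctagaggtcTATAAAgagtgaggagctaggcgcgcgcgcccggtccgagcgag
Cd151, chr7:141467112-141467411: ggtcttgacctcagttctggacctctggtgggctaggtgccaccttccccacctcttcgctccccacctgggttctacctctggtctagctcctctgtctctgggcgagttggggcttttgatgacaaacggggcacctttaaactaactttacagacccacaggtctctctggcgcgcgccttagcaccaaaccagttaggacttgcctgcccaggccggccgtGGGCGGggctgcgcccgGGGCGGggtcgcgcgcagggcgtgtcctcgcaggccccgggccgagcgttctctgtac
Tspan4, chr7:141474986-141475285: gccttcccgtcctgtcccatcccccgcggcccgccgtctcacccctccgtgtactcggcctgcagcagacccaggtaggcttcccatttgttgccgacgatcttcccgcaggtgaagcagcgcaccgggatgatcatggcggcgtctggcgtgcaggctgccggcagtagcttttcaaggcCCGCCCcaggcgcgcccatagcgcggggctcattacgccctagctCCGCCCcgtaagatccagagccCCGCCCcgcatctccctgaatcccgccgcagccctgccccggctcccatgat

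The Tspan32 window held none of the 5 motifs searched and was rich in purines, 61% of its plus strand beside a median of 50.3% over all promoters. The Cd81 window held 3 GC boxes and 1 TATA box, which lies at bases 7 to 12 after the start. The Cd151 window held 2 GC boxes, at -25 to -20 and -8 to -3 from the start, and the Tspan4 window held 3 on the minus strand. A second annotated start of Cd151 had no match, and that of Tspan4 held an AP-1 site at bases 39 to 45 and an ETS core at -26 to -21. GC content was 56.7% for Tspan32, 65.7% for Cd81, 64.3% for Cd151 and 68.7% for Tspan4, beside a median of 52.7%. As the Tspan32 window held no match, it could share no matched motif with the Cd151 window.

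Over the 10 members, all of which had a RefSeq promoter, a GC box was found for 6 genes, a TATA box for 1 and the ETS core GGAAGT for 4, on either strand and at any annotated start. Over all 32851 promoters the shares were 35.7% for the GC box, 13.6% for the TATA box and 23.8% for the ETS core. These shares count single promoter windows, whereas members with several starts, such as Cd82 and Cd151, could match in any window. The member counts and the shares are therefore not on the same measure. The core of the interferon-stimulated response element, a motif bound by interferon-activated factors, was found in no member and in 3.44% of all promoters. The AP-1 site TGANTCA was likewise found in no member, beside 7.81% of all promoters. None of these motifs overlapped another in a member's window. A match is a run of letters and not a measured binding site.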

How the data were processed

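Total RNA of resting splenic CD4 T cells was hybridised to 4 arrays, 2 of IfitmF–/– and 2 of WT cells. The authors deposited RMA intensities, not yet in log form, and log2 of each deposited intensity was taken for every test. The submitters' processing notes name RMA and affy. Their versions, and the build, are not given in the sources used here. A shift common to all genes is taken away by the quantile normalisation within RMA. The model was limma's lmFit and eBayes (version 3.58.1, R 4.3.3) without covariates, over all 34760 probe sets, with Benjamini-Hochberg adjustment. It had 2 residual and 2.39 prior degrees of freedom, and the number of arrays limits the precision. Gene names came from the platform annotation, which gave a single gene for 21640 probe sets, more than 1 for 1321 and no gene for 11799. Symbols were brought up to date through the RefSeq table of GRCm38.p6, and the probe set of highest mean stood for each gene.

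The members and the lists of other tetraspanins, partners and cell type markers were chosen with earlier results of these data known. The genes named were all members, Ifitm1 to Ifitm3, called genes of smallest p from each list and the most abundant markers, and other genes were named after their values were seen. As alternatives the prior of eBayes (trend and robust), the scaling (quantile normalisation once more, or centring on medians), the probe sets tested (those above the median log2 value of 6.26, or those of 1 gene), the mean over a gene's probe sets, a block for the replicate number, the t-test of the methods, their fold and range filter and the omission of each array were tried. A probe set counted as above the median when the higher of its genotype means reached it. Promoters came from RefSeq. Protein sequences were not used here.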

Additional observations from a re-analysis of the deposited data

How the results depend on the processing

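Tspan32 and Cd151 were the 2 members called with trend and robust eBayes, renewed quantile normalisation, median centring, without dim probe sets (9 members tested), with probe sets of 1 gene and by the unadjusted t-test of the methods. Of all 34760 probe sets, 3669 were called with trend and robust eBayes, 2963 with renewed quantile normalisation and 2993 with median centring. Without dim probe sets 4196 of 18200 were called, and with probe sets of 1 gene 3037 of 21640. Over 11 settings with all arrays, the change of Tspan32 was 1.10 to 1.14 and that of Cd151 was 1.01 to 1.05. Each gene had 1 probe set, so averaging probe sets changed no member. With the replicate number as a block, 0 members, 0 partners and 0 of all probe sets were called, beside 8016 probe sets at an unadjusted p under 0.05, and Tspan32 and Cd151 had adjusted p values of 0.0624 and 0.11. The deviations of same-numbered arrays from their genotype means correlated at -0.1238 over all probe sets. With 2 arrays per genotype both pairs give the same value, so whether same-numbered arrays shared a preparation cannot be told from it. A crossed block, chosen after seeing the data, gave 2 members, 0 partners and 975 probe sets. That t-test gave 1 other tetraspanin (Tspan14), 6 partners and 6811 probe sets without adjustment, and 0 members, 0 partners and 4 probe sets after Benjamini-Hochberg. The fold and range filter left 1 member (Tspan32), 0 partners and 403 probe sets. Of the other tetraspanins, 1 (Tspan8) was called without dim probe sets and 3 with probe sets of 1 gene. Tspan8 passed the filter on dim probe sets only through its IfitmF–/– mean of 6.46 (WT mean 5.18), so that call is no separate support. Without 1 array, all counts of calls were 0 to 0, beside 2 to 4 members, 3 to 6 other tetraspanins, 4 to 9 partners and 6062 to 9107 probe sets at an unadjusted p under 0.05; such a fit has 3 arrays, and the lone array of a genotype is assumed to vary like the others. Directions turned for 3 uncalled members. Cd37 changed by 0.021 with median centring and by 0.09 without the first WT array. Without the first IfitmF–/– array Cd81 changed by 0.29 and Tspan31 by 0.026. Over the left-out arrays Cd37 ranged over -0.13 to 0.09, Cd81 over -0.76 to 0.29 and Tspan31 over -0.28 to 0.026. The other uncalled members kept their direction in every setting that gave them a value, with ranges over the left-out arrays of 0.026 to 0.75 for Cd9 and 0.25 to 1.35 for Cd63. Median centring left 2 partners called (Adam10 and Ezr). Signal over background was low for Cd63, which the filter on dim probe sets removed.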
